A study of Mus musculus with 18 samples.

Results

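The genes described here build cholesterol, sense it, move it between and out of cells, or store it as ester. They are a list of 33 mouse genes chosen by name: 20 enzymes of synthesis, 4 genes of the SREBP2 switch, the sterol carrier Stard4, the receptor-degrading ligase Mylip, 2 genes of storage, and 5 genes of efflux and of the sterol receptor LXR. The deposited table held a row for 32 of them, 19 of these enzymes of synthesis, among 23474 gene identifiers. Mvd was not analysed here. Messenger RNA had been sequenced from epididymal white adipose tissue (eWAT, the fat pad beside the epididymis and testis) and from the liver of male mice of the strain C57BL/6J, written C56BL/6J in the strain label, at an age of 17 weeks. Each tissue had 3 libraries from mice prone to obesity on a high-fat diet (HP), 3 from mice resistant to it on the same diet (HR) and 3 from mice on a normal diet (ND), 18 in all. The labels describe 30 individually housed mice divided at random into groups of 10 at 5 weeks of age, with the diets given for 12 weeks after a week on chow. They do not say how prone and resistant mice were told apart, what the diets held, or whether libraries were from different mice. The p-values therefore reflect variation among these libraries, part of which may be technical. The comparisons address how cholesterol genes of the 2 tissues differ between mice that do and do not become obese on the same diet and mice that were never on it.

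Cells build cholesterol from acetyl-CoA through mevalonate, farnesyl diphosphate, squalene and lanosterol. When sterol in the endoplasmic reticulum is low, SCAP escorts the membrane-bound transcription factor SREBP2 to the Golgi, where proteases free the part that switches on the genes of synthesis and uptake, and when sterol is high the INSIG proteins hold SCAP back. LXR, a nuclear receptor for oxidised sterols, switches on genes of efflux and of receptor degradation. The liver makes cholesterol, secretes it into bile and packs it into lipoproteins, and fat cells hold a large pool of it unesterified.

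Genes of this kind are known for shared promoter elements, so the stretch upstream of each start was read from RefSeq promoters of assembly GRCm38.p6, which run from 250 bases before to 50 bases after a gene's start. A promoter was found for 27 of the 33 listed genes, 17 of them enzymes of synthesis. Promoters of Fdps, Fdft1, Sqle, Stard4, Soat2 and Abcg1 were not used here. The letters CCAAT, the core bound by NF-Y, which acts with SREBPs, were searched on both strands and lay in the promoters of 16 of the 17 enzymes of synthesis, that is 94.1%, and in those of 23 of the 27 genes, that is 85.2%. Of all 27025 genes with a promoter in that table, 41.1% held them. Acat2 was the enzyme without them. The letters CCGCCC, a GC box bound by Sp1-type factors, were found in 81.5% of the 27 genes and 38.2% of all genes. The letters TCACNCCAC of the sterol response element, to which SREBPs bind, were found in Hmgcs1 among the 27 genes and in 1.44% of all genes. The shorter form TCACNCCA, which is contained in the longer one, was found in Hmgcs1, Msmo1 and Srebf2 and in 4.97% of all genes. The palindromic E-box CACGTG was found in Hsd17b7, Sc5d, Dhcr7, Scap, Insig1 and Abca1, or 22.2% of the 27, and in 8.09% of all genes. A match is a description of letters and not a site shown to be bound, and a gene without one may carry it outside this window. The 180 bases before the start are shown 5′ to 3′ in the direction of the gene for 4 genes that the results turn on, with sterol response, CCAAT and E-box letters of either strand in capitals. Hmgcs1 (chr13:119690171-119690350, plus strand) and Msmo1 (chr8:64733579-64733758, minus strand) stand for enzymes with sterol response letters and several CCAAT letters. Msmo1 holds the shorter form alone. Insig1 (chr5:28071232-28071411, plus strand) stands for the feedback gene. Hsd17b7 (chr1:169969206-169969385, minus strand) stands for an enzyme that carries CCAAT letters too and fell in HP below ND livers. That call was lost in 8 of 14 alternatives, and its HP and ND libraries overlapped. The 109 bases between the starts of the divergent genes Abcg5 and Abcg8 (chr17:84683012-84683120, given on the minus strand) are shown because those genes differed together between HP and HR livers. They held no match to the 5 motifs, but CCAAT letters lay directly beside them, beginning at the first base of Abcg5 and 114 bases before the start of Abcg8.
Hmgcs1: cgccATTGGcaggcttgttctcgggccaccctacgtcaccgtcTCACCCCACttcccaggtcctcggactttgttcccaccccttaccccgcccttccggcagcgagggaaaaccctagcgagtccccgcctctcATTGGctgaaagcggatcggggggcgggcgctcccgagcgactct
Msmo1: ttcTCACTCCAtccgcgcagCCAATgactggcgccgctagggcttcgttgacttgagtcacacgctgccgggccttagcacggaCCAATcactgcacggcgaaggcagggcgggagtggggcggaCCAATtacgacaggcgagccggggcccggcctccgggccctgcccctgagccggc
Insig1: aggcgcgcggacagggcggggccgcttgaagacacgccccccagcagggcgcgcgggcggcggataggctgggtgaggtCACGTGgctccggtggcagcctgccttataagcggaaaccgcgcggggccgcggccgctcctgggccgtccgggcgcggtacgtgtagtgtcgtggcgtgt
Hsd17b7: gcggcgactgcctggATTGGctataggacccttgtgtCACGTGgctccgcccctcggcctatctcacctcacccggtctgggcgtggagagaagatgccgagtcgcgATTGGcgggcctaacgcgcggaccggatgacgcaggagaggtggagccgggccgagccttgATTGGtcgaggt
Abcg5 to Abcg8: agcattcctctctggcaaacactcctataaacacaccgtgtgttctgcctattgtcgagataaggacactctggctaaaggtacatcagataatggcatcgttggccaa

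Values are FPKM, fragment counts divided by transcript length and library size, so levels can be set side by side between genes, while sequencing depth is unknown. Log2 differences are of log2(FPKM + 1), a scale that understates the change of genes with low values, and a gene is said to have risen or fallen where its adjusted p was under 0.05 (limma, two-sided, Benjamini-Hochberg over all genes tested). Genes entered a fit with 1 FPKM or more in 3 or more of its libraries. Hepatocyte markers summed to between 44618 and 82835 FPKM in the liver libraries, whose spermatid markers were all at 0, although Alb was listed at 0 in HP 3 and at 21466 FPKM or more in the other 8. In eWAT, ND 1 and HR 2 stood apart: 4 spermatid markers summed to 11231 FPKM in HR 2 and 92413 FPKM in ND 1, against at most 2282 FPKM in the other 7 libraries. Adipocyte markers summed to 4760 FPKM in HR 2 and 3533 FPKM in ND 1, against 14984 to 29573 FPKM in those 7. Calls in eWAT are therefore given over all 9 libraries and over the 7 without ND 1 and HR 2, and values in detail over the 7. In whole tissue, fewer cells of a type and less of a transcript per cell cannot be told apart.

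In HP livers the pathway of synthesis was higher than in ND livers at nearly every step. Of 31 cholesterol genes tested in liver, 16 rose and 4 fell in HP over ND, where 17.6% of all 10633 genes rose and 14.1% fell (31.7% in either direction). Of the 19 enzymes of synthesis 15 rose and 1 fell, with a median log2 difference of 0.89 over the enzymes against -0.02 over all genes tested. In every one of the 15 that rose, all 3 HP livers lay above all 3 ND livers. Genes called on these same libraries would mostly show this, and it was not counted over all genes, so it adds no support.

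The early steps lead from acetyl-CoA to farnesyl and geranylgeranyl diphosphate, and 6 of their 7 enzymes rose in HP over ND livers. Fdps, which makes farnesyl diphosphate, had 69.2, 119 and 96.3 FPKM in HP livers, 60.9, 41.8 and 55.2 FPKM in HR livers, and 20.7, 18.6 and 19.1 FPKM in ND livers. The 3 groups did not overlap, with HP highest and ND lowest. Its log2 difference of 2.20 (SE 0.19, limma adjusted p = 8.94e-05) was the largest among the cholesterol genes in HP over ND livers. Hmgcs1, which condenses acetyl-CoA and acetoacetyl-CoA into the precursor of mevalonate, had 89.1, 116 and 129 FPKM in HP livers, 76.4, 79.6 and 76.1 FPKM in HR livers, and 42.6, 27.01 and 36.4 FPKM in ND livers. All HP and HR livers lay above all ND livers, and HP rose over ND by 1.64 (SE 0.18, limma adjusted p = 0.000258). Idi1, the isomerase of the isoprene unit, had 23.1, 22.3 and 23.3 FPKM in HP livers, 24.0, 26.4 and 30.2 FPKM in HR livers, and 11.4, 7.32 and 11.3 FPKM in ND livers. Both high-fat groups lay above ND without overlap, and HP rose over ND by 1.14. Acat2, the cytosolic thiolase that feeds the pathway, had 24.3, 24.9 and 26.3 FPKM in HP livers, 17.1, 17.5 and 18.4 FPKM in HR livers, and 9.23, 11.6 and 11.5 FPKM in ND livers. It too formed 3 groups without overlap, and HP rose over ND by 1.16 (SE 0.12, limma adjusted p = 0.000184). The kinases of mevalonate and of phosphomevalonate, Mvk and Pmvk, rose in HP over ND livers by 0.62 and 0.54. Ggps1, which makes geranylgeranyl diphosphate for protein prenylation off the sterol branch, averaged 2.67 ± 0.185 FPKM in HP and 3.13 ± 0.197 FPKM in ND livers (SD, n = 3 each) and did not pass (-0.17, limma adjusted p = 0.299).

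Squalene synthase and squalene epoxidase rose, while the cyclase after them did not. Sqle, the epoxidase and a slow step of the pathway, had 7.14, 12.97 and 13.5 FPKM in HP livers, 12.5, 14.7 and 13.6 FPKM in HR livers, and 3.60, 2.03 and 4.42 FPKM in ND livers. Neither high-fat group overlapped ND, and HP rose over ND by 1.48 (SE 0.25, limma adjusted p = 0.00215). Fdft1, squalene synthase, had 29.8, 39.2 and 32.7 FPKM in HP livers, 32.1, 28.9 and 33.5 FPKM in HR livers, and 13.1, 18.7 and 19.1 FPKM in ND livers. HP and HR overlapped each other and both lay above ND, with a rise of 0.97 in HP over ND. Fdft1 shares 774 exon bases with Ctsb on the opposite strand in GENCODE M21. Ctsb, a lysosomal protease, had 125 to 144 FPKM in HP livers, 100.1 to 121 FPKM in HR livers and 85.4 to 99.999 FPKM in ND livers, and reads of these genes cannot be told apart where counting ignored strand. Lss, lanosterol synthase, had 1.53, 0.70 and 2.14 FPKM in HP livers, 3.32, 4.47 and 3.97 FPKM in HR livers, and 1.36, 0.94 and 3.07 FPKM in ND livers. HP and ND overlapped and did not differ past the threshold (-0.16, SE 0.28, limma adjusted p = 0.691).

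The steps after lanosterol strip methyl groups and shift double bonds, and 7 of their 9 enzymes rose in HP over ND livers. Msmo1, the sterol C4 methyl oxidase, had 56.0, 76.5 and 56.3 FPKM in HP livers, 60.5, 63.8 and 82.8 FPKM in HR livers, and 12.1, 15.0 and 16.4 FPKM in ND livers. The lowest library of either high-fat group lay far above the highest ND library, and HP rose over ND by 2.04 (SE 0.17, limma adjusted p = 6.85e-05). Nsdhl, which acts on the same C4 carbon, had 23.4, 27.8 and 30.4 FPKM in HP livers, 18.8, 17.0 and 16.8 FPKM in HR livers, and 7.95, 5.73 and 7.10 FPKM in ND livers. The groups were in the order HP, HR, ND without overlap, and HP rose over ND by 1.83 (SE 0.14, limma adjusted p = 5.96e-05). Cyp51, the lanosterol demethylase, had 21.0, 26.1 and 22.9 FPKM in HP livers, 25.4, 25.2 and 23.4 FPKM in HR livers, and 11.5, 8.24 and 12.8 FPKM in ND livers. Dhcr7, the 7-dehydrocholesterol reductase of the last step, had 17.8, 21.3 and 25.2 FPKM in HP livers, 20.6, 24.7 and 19.2 FPKM in HR livers, and 10.3, 11.4 and 11.4 FPKM in ND livers. In both enzymes HP and HR overlapped each other and lay above ND, with rises in HP over ND of 1.05 for Cyp51 and 0.89 for Dhcr7. Smaller rises in HP over ND were found for Tm7sf2, a sterol C14 reductase (0.61), Sc5d, the C5 desaturase (0.57), and Ebp, the isomerase (0.54). Lbr, a protein of the nuclear envelope that carries a second C14 reductase activity, did not pass (-0.07, limma adjusted p = 0.675). Hsd17b7, the 3-ketosteroid reductase of the C4 steps, fell by 0.59 (limma adjusted p = 0.0415), at 10.97 ± 1.06 FPKM in HP and 17.5 ± 5.02 FPKM in ND livers (SD, n = 3 each), whose libraries overlapped.

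Among the genes of the SREBP2 switch, the INSIGs moved in opposite directions. Insig1, itself a target of SREBPs, had 51.2, 59.0 and 53.3 FPKM in HP livers, 61.7, 86.4 and 90.3 FPKM in HR livers, and 17.1, 26.8 and 31.6 FPKM in ND livers. All HP and HR livers lay above all ND livers, and HP rose over ND by 1.12 (SE 0.21, limma adjusted p = 0.00362). Insig2 had 139, 110.1 and 189 FPKM in HP livers, 98.1, 121 and 158 FPKM in HR livers, and 419.9, 207 and 239 FPKM in ND livers. All ND livers lay above all high-fat livers, the first ND library farthest, and HP fell below ND by 0.94 on the log2 scale (SE 0.28, limma adjusted p = 0.0259). The FPKM ratio of Insig1 to Insig2 was 0.369, 0.536 and 0.281 in HP livers, 0.629, 0.714 and 0.572 in HR livers, and 0.0408, 0.1297 and 0.132 in ND livers. The ratio thus separated all 3 groups, with HR highest and ND lowest. Scap had 22.5, 19.6 and 19.6 FPKM in HP livers, 30.8, 32.5 and 37.0 FPKM in HR livers, and 32.8, 35.6 and 33.3 FPKM in ND livers. HP livers lay below both other groups, and HP fell below ND by 0.70 (SE 0.11, limma adjusted p = 0.00203). Srebf2, the gene of SREBP2, averaged 8.75 ± 1.32 FPKM in HP livers, 11.8 ± 2.27 FPKM in HR livers and 7.07 ± 1.26 FPKM in ND livers (SD, n = 3 each) and passed in none of the liver comparisons.

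Of 8 genes of sterol transfer, receptor degradation, storage, efflux and LXR tested, 1 differed between HP and ND livers, where 31.7% of all genes did. Abca1, which loads cholesterol onto apolipoprotein A-I, had 12.6, 8.98 and 15.9 FPKM in HP livers, 17.3, 22.1 and 17.3 FPKM in HR livers, and 26.95, 20.8 and 21.6 FPKM in ND livers. HP libraries lay below both other groups, HR and ND overlapped, and HP fell below ND by 0.86 (SE 0.19, limma adjusted p = 0.00748). Soat2, the sterol acyltransferase of hepatocytes, averaged 24.2 ± 4.93 FPKM in HP and 17.9 ± 0.990 FPKM in ND livers (SD, n = 3 each) and did not pass (0.40, limma adjusted p = 0.092). Abcg1, Nr1h3 (which encodes LXR alpha), Mylip, Stard4, Abcg5 and Abcg8 did not pass in HP over ND livers, with log2 differences of -0.44 for Abcg8 to 0.14 for Nr1h3.

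Of the 20 calls in HP over ND livers, 14 were kept under every alternative setting and without any 1 library. Without HP 2 or ND 3 the calls of Pmvk (0.34 to 0.45 where lost), Tm7sf2 (0.51 to 0.58) and Ebp (0.43 to 0.50) were lost, the last 2 also without ND 1, and Sc5d (0.35 to 0.45) lost its call without HP 3, while Hsd17b7 (-0.66 to -0.42) kept no call without any 1 HP library, ND 1, ND 3 or HR 3, and Insig2 (-0.94 to -0.64) none without HP 1, HP 2 or ND 1. Adipocyte markers summed to 107 to 152 FPKM in HP livers, 40.9 to 43.5 FPKM in HR livers and 36.7 to 64.8 FPKM in ND livers. Nearly all of the sum in HP livers was Cidec and Fabp4, while Adipoq reached 1.40 FPKM and Plin1 0.40 FPKM, both in HP 1. Both were at 0 in HP 2. Of the endothelial markers, 2 of 5 were lower in HP than in ND livers. Skeletal muscle markers reached 98.9 FPKM in HP 2 and 19.9 FPKM in HP 3 against under 1 FPKM elsewhere in liver. Of 6 hepatocyte markers Ttr and Apoa2 rose in HP over ND livers (1.05 and 1.19) and Cps1 fell (-1.94), at 102 to 156 FPKM in HP and 453 to 598 FPKM in ND livers. Their part in these differences was not tested.

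**Figure D1:**
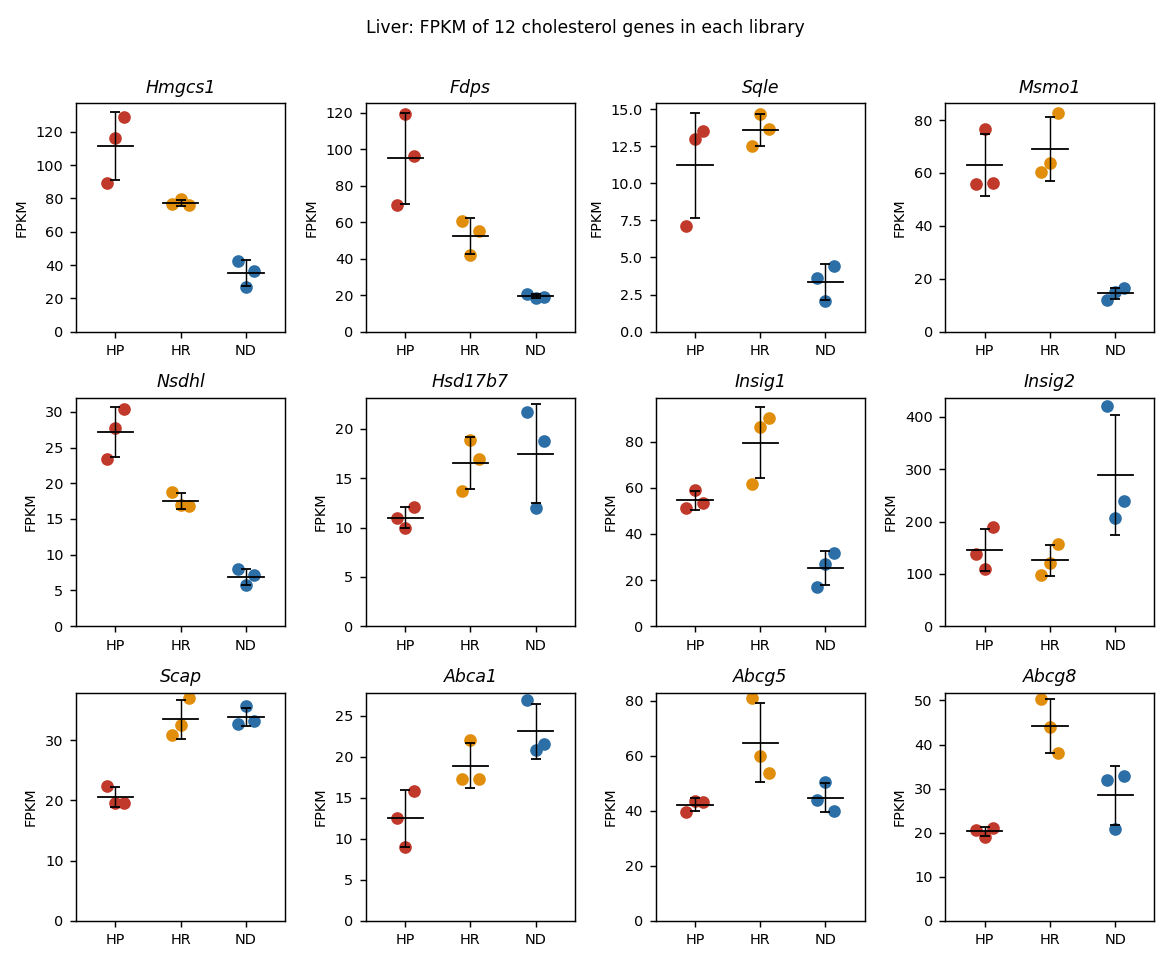
FPKM of 12 cholesterol genes in each of the 9 liver libraries, by group (HP red, HR orange, ND blue), with the group mean as a line and its SD as a bar (n = 3 each). Fdps and Nsdhl stand in the order HP, HR, ND without overlap, Sqle and Msmo1 overlap between HP and HR, and Scap, Abcg8 and Abca1 have their lowest means in HP.

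Synthesis was also higher in HR than in ND livers, a comparison that shares its 3 ND libraries with the one above. In HR over ND livers 12 of 31 cholesterol genes rose and 1 fell, where 2.28% of all genes rose and 0.969% fell (3.24% in either direction). Of the 19 enzymes of synthesis 11 rose and none fell, with a median of 0.88 over the enzymes and 0.01 over all genes tested. The largest rise was that of Msmo1 (2.17, SE 0.17, limma adjusted p = 0.000151), followed by Sqle (1.79), Fdps (1.37), Idi1 (1.36) and Nsdhl (1.23). Cyp51, Hmgcs1, Mvk, Dhcr7, Fdft1 and Acat2 rose by 0.67 to 1.14. Mvk averaged 8.32 ± 1.42 FPKM in HR and 3.58 ± 0.131 FPKM in ND livers (SD, n = 3 each), its HR libraries also being above its HP libraries of 5.38 to 6.39 FPKM. Insig1 rose by 1.64 (SE 0.21, limma adjusted p = 0.00345), and Insig2 fell by 1.15 at the edge of the threshold (SE 0.28, limma adjusted p = 0.05 when rounded). No other gene passed: Scap, which fell in HP, averaged 33.4 ± 3.20 FPKM in HR and 33.9 ± 1.53 FPKM in ND livers (-0.02, limma adjusted p = 0.935), and Abca1 was at -0.28 (limma adjusted p = 0.457). The calls of Insig2, Acat2, Fdft1 and Dhcr7 were lost without ND 1 (-0.84, 0.57, 0.71 and 0.85), and the first 3 also without certain HR libraries. The call of Insig2 was lost in 11 of 14 alternatives in all (-1.33 to -0.84), a smaller pseudocount, no filter, rescaling and the replicate block among them.

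Set directly against each other, HP and HR livers differed in few steps of synthesis and in sterol export. In HP over HR livers 3 of 31 cholesterol genes rose and 5 fell, where 7.2% of all genes rose and 3.94% fell (11.1% in either direction). Those higher in HP were Fdps (0.82, SE 0.19, limma adjusted p = 0.0241), Nsdhl (0.60, limma adjusted p = 0.0233) and Acat2 (0.49, limma adjusted p = 0.0248). Abcg8 and Abcg5 form the half-transporter pair that secretes sterol into bile. Abcg8 had 20.6, 19.1 and 21.1 FPKM in HP livers, 50.2, 44.1 and 38.0 FPKM in HR livers, and 31.9, 20.8 and 32.8 FPKM in ND livers. Abcg5 had 39.4, 43.7 and 43.2 FPKM in HP livers, 80.9, 59.7 and 53.7 FPKM in HR livers, and 43.9, 50.3 and 39.8 FPKM in ND livers. For both genes every HR library lay above every HP and every ND library, and HP overlapped ND. HP fell below HR by 1.08 for Abcg8 (SE 0.17, limma adjusted p = 0.0065) and by 0.59 for Abcg5 (SE 0.15, limma adjusted p = 0.0354). HR over ND did not pass for either gene, at 0.63 for Abcg8 (limma adjusted p = 0.076) and 0.51 for Abcg5 (limma adjusted p = 0.106). The genes share 82 exon bases on opposite strands, so their counts are not fully separate where counting ignored strand. Scap fell below HR by 0.67 (SE 0.11, limma adjusted p = 0.00747) and Lss by 1.04 (limma adjusted p = 0.0365). Stard4, a carrier of sterol between membranes, had 12.2, 11.7 and 10.4 FPKM in HP livers, 15.6, 21.1 and 20.3 FPKM in HR livers, and 11.1, 10.2 and 15.6 FPKM in ND livers, and HP fell below HR by 0.68 (limma adjusted p = 0.0289). Abca1 and Insig1 were at -0.59 and -0.52 without passing. Abcg8 and Scap kept their calls under every setting, while the other 6 lost theirs without HP 2 or HR 2, when 2 genes passed in all; without HP 3 there were 4 calls and without HR 3 there were 3. Where lost, the differences were 0.64 to 0.86 for Fdps, 0.42 to 0.58 for Nsdhl, 0.30 to 0.52 for Acat2, -1.48 to -0.80 for Lss, -0.69 to -0.60 for Stard4 and -0.64 to -0.42 for Abcg5, whose call was also lost under the replicate block.

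Genes of other parts of cholesterol handling were read from 5 further lists, in which 11 of 46 genes tested passed in HP over ND livers, a smaller share than the 31.7% of all genes given above, so the calls below say nothing particular to these lists. Of 10 genes of SREBP processing and sterol sensing tested in HP over ND livers 1 rose, Srebf1 (0.88), which encodes the SREBP of fatty acid synthesis, and 2 fell, with Paqr3, a Golgi anchor of SCAP, at -0.53. Srebf1 averaged 41.6 FPKM in HP livers, 55.8 FPKM in HR livers and 21.6 FPKM in ND livers, and rose in HR over ND by 1.33. Of 11 genes of lysosomal release and sterol transport 3 fell in HP over ND livers: Scarb2, a lysosomal membrane protein (-0.72), Lipa, the acid lipase that frees cholesterol from its esters (-0.63), and Nceh1, a neutral ester hydrolase (-0.59). Of 9 LXR partners and lipoprotein genes 2 rose, the phospholipid transfer protein Pltp (1.37) and the receptor Vldlr (0.75). Of 6 sterol hydroxylases and bile acid genes, Cyp7b1, the oxysterol 7-alpha-hydroxylase, fell by 1.55 below ND and by 1.75 below HR, at 38.8 FPKM in HP livers, 119 FPKM in HR livers and 106 FPKM in ND livers. Cyp46a1, a cholesterol 24-hydroxylase, rose by 1.06 over ND. Of 10 genes that use mevalonate products 1 rose in HP over ND livers, Coq2 of ubiquinone synthesis (0.30, limma adjusted p = 0.05 when rounded). In HR over ND livers Srebf1 was the one gene of these 5 lists to pass. In HP over HR livers, genes of these lists that were lower in HP included Cyp7b1 and Scarb1, the receptor for high-density lipoprotein (-0.42), and none was higher.

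In eWAT the 9 libraries gave few calls. Of 29 cholesterol genes tested 3 rose and none fell in HP over ND, where 2.07% of all 14430 genes rose and 0.0416% fell (2.11% in either direction). These were Soat1 (2.84, SE 0.42, limma adjusted p = 0.0246), Dhcr7 (2.31, SE 0.39, limma adjusted p = 0.033) and Msmo1 (1.57, SE 0.31, limma adjusted p = 0.0475). Over these 9 libraries the HP over ND differences of the genes called below over 7 libraries alone did not pass, at 2.14 for Insig1, 1.40 for Abcg1, 1.39 for Lss, 1.28 for Nsdhl, 1.17 for Hsd17b7, 0.71 for Idi1, 0.67 for Mvk, 0.66 for Cyp51, 0.62 for Hmgcs1, 0.53 for Fdps, 0.36 for Ebp and 0.10 for Insig2. Without HP 1, HP 2, HP 3, HR 1, ND 2 or ND 3 none of the 29 passed, and without HR 2 there were 4. None of the 29 passed by limma in HR over ND or in HP over HR, nor did any other gene (0% called in both). At an unadjusted p under 0.05 there were 3 of 29 in each, Soat1 and Dhcr7 in both, Lss in HR over ND and Msmo1 in HP over HR, where 2.72% and 4.71% of all genes reached it.

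The libraries rich in spermatid RNA, or 1 of them, stood apart in several cholesterol genes. Fdft1 had 118 FPKM in HR 2 and 166 FPKM in ND 1, against 20.8 to 36.6 FPKM in the other 7 eWAT libraries. Sqle had 48.5 FPKM in HR 2 and 19.2 FPKM in ND 1, against 2.64 to 11.6 FPKM in those 7, and Cyp51 had 35.5 FPKM in HR 2, while its 15.9 FPKM in ND 1 lay within the 7.79 to 19.6 FPKM of those 7. Conversely, Hmgcs1 had 51.3 FPKM in HR 2 and 15.9 FPKM in ND 1, against 112 to 161 FPKM, and Sc5d 14.9 FPKM in HR 2 and 5.66 FPKM in ND 1, against 42.7 to 71.9 FPKM. Markers of epididymal epithelium summed to 20061 FPKM in ND 1 and, almost all from Crisp1, to 1172 FPKM in HP 2, against at most 13.3 FPKM in the other 7 libraries. The part of germ cells and of epididymal cells in these values was not tested.

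Over the 7 libraries, HP fat was higher than ND fat in enzymes of every stage of the pathway. Of 29 cholesterol genes 13 rose and 2 fell in HP over ND, where 15.7% of all 13054 genes rose and 7.4% fell (23.1% in either direction). Of the 19 enzymes of synthesis 10 rose and 1 fell, with a median of 0.70 over the enzymes and 0.01 over all genes tested. By stage, 3 of 7 early enzymes rose and 1 fell, 1 of 3 from squalene to lanosterol rose, and 6 of 9 after lanosterol rose, with stage medians of 0.46, 0.87 and 0.70 and no test between the stages.

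Dhcr7 had 18.9, 20.9 and 32.7 FPKM in HP fat, 8.35 and 15.998 FPKM in HR fat, and 3.30 and 5.94 FPKM in ND fat, with 9.93 FPKM in HR 2 and 3.03 FPKM in ND 1. The groups stood in the order HP, HR, ND without overlap, and HP rose over ND by 2.16 (SE 0.36, limma adjusted p = 0.00694). Msmo1 had 23.9, 25.0 and 27.3 FPKM in HP fat, 9.36 and 11.5 FPKM in HR fat, and 7.54 and 7.70 FPKM in ND fat, with 5.92 FPKM in HR 2 and 8.50 FPKM in ND 1. HP lay far above both other groups, and it rose over ND by 1.61 (SE 0.14, limma adjusted p = 0.000504) and over HR by 1.21 (limma adjusted p = 0.0177). Fdps had 48.4, 50.3 and 43.2 FPKM in HP fat, 21.6 and 24.4 FPKM in HR fat, and 14.7 and 20.2 FPKM in ND fat, with 46.5 FPKM in HR 2 and 111 FPKM in ND 1. Among the 7 libraries HP was highest, by 1.41 over ND (SE 0.16, limma adjusted p = 0.00168) and 1.01 over HR (limma adjusted p = 0.0256), whereas over all 9 the groups overlapped. Nsdhl had 26.6, 28.7 and 27.8 FPKM in HP fat, 14.8 and 20.8 FPKM in HR fat, and 12.9 and 15.4 FPKM in ND fat, with 5.90 FPKM in HR 2 and 6.22 FPKM in ND 1, and HP rose over ND by 0.93. Cyp51 had 17.8, 19.6 and 19.1 FPKM in HP fat, 7.79 and 10.4 FPKM in HR fat, and 8.12 and 11.8 FPKM in ND fat, and HP rose over ND by 0.88 and over HR by 0.99. Idi1 had 19.0, 20.7 and 19.9 FPKM in HP fat, 9.86 and 10.4 FPKM in HR fat, and 13.9 and 9.85 FPKM in ND fat, and HP rose over ND by 0.72 and over HR by 0.91. In both enzymes HR and ND overlapped. Lss had 8.15, 11.8 and 10.5 FPKM in HP fat, 5.79 and 8.67 FPKM in HR fat, and 3.09 and 4.24 FPKM in ND fat, and HP rose over ND by 1.25 (limma adjusted p = 0.0114). Mvk had 23.0, 19.4 and 21.3 FPKM in HP fat, 18.7 and 18.99 FPKM in HR fat, and 12.3 and 12.6 FPKM in ND fat, with 9.60 FPKM in HR 2 and 14.04 FPKM in ND 1. The 7 libraries stood in the order HP, HR, ND without overlap, and HP rose over ND by 0.72 (SE 0.12, limma adjusted p = 0.00775). Hsd17b7 (0.70) and Ebp (0.62) also rose in HP over ND fat.

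An early step went the other way. Hmgcs1 had 122, 113 and 112 FPKM in HP fat, 130.1 and 144 FPKM in HR fat, and 161 and 158 FPKM in ND fat. HP lay below HR and HR below ND without overlap, and HP fell below ND by 0.46 on the log2 scale (SE 0.11, limma adjusted p = 0.0227). Over 9 libraries, with 51.3 FPKM in HR 2 and 15.9 FPKM in ND 1, its HP over ND difference turned to 0.62 and did not pass. Acat2, Pmvk, Ggps1, Fdft1, Sqle, Tm7sf2, Lbr and Sc5d did not pass in HP over ND fat, at -0.29 for Ggps1 to 0.87 for Sqle.

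Over the 7 libraries the INSIGs were again opposed in HP fat. Insig1 had 206, 194 and 182 FPKM in HP fat, 82.0 and 140.3 FPKM in HR fat, and 69.6 and 62.5 FPKM in ND fat, with 27.1 FPKM in HR 2 and 18.4 FPKM in ND 1. HP was highest and HR between, and HP rose over ND by 1.54 (SE 0.22, limma adjusted p = 0.00379). Insig2 had 45.5, 54.7 and 50.3 FPKM in HP fat, 59.2 and 63.9 FPKM in HR fat, and 97.1 and 72.5 FPKM in ND fat, with 50.1 FPKM in HR 2 and 14.0 FPKM in ND 1. Over the 7 libraries HP was lowest, and it fell below ND by 0.73 (SE 0.16, limma adjusted p = 0.0175), whereas over 9 libraries the difference was 0.10 and did not pass, with ND 1 below every HP library. The FPKM ratio of Insig1 to Insig2 was 4.53, 3.55 and 3.62 in HP fat, 1.39, 0.540 and 2.20 in HR fat, and 1.32, 0.717 and 0.862 in ND fat, all 9 libraries included. The ratio was highest in HP, and HR and ND overlapped. Srebf2 (0.79) and Scap (-0.17) did not pass in HP over ND fat.

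Over the 7 libraries a gene of storage and a gene of export rose over ND in both high-fat groups. Over 9 libraries no gene passed in HR over ND. The HR over ND call of the export gene was also lost under the replicate block and without any 1 HP library. Soat1, the sterol acyltransferase found in macrophages and many other cells, had 43.2, 41.3 and 53.2 FPKM in HP fat, 15.6 and 21.9 FPKM in HR fat, and 2.89 and 5.39 FPKM in ND fat, with 12.6 FPKM in HR 2 and 10.2 FPKM in ND 1. The groups were in the order HP, HR, ND without overlap over 7 and over 9 libraries, and HP rose over ND by 3.22 (SE 0.26, limma adjusted p = 0.000362), HR over ND by 1.97 (SE 0.28, limma adjusted p = 0.0146) and HP over HR by 1.26 (limma adjusted p = 0.0403). Abcg1, which exports cholesterol to mature high-density lipoprotein, had 50.1, 45.9 and 52.2 FPKM in HP fat, 36.8 and 42.5 FPKM in HR fat, and 22.3 and 24.3 FPKM in ND fat, with 7.14 FPKM in HR 2 and 10.8 FPKM in ND 1. It had the same order of groups over the 7 libraries, and HP rose over ND by 1.05 (SE 0.12, limma adjusted p = 0.00168) and HR over ND by 0.74 (SE 0.13, limma adjusted p = 0.033). Abca1 and Nr1h3 did not follow: Abca1 averaged 46.5 ± 10.5 FPKM in HP (SD, n = 3) and had 52.9 and 52.3 FPKM in ND fat, a difference of -0.20 that did not pass.

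Over the 7 libraries the sums of macrophage markers had the same order of groups as Soat1 and Abcg1. Among all 9, ND 1 had the lowest sum but more Soat1 than ND 2 and ND 3 (10.2 against 2.89 and 5.39 FPKM). The 8 macrophage markers all rose over the 7 libraries in HP over ND (median 4.34), in HR over ND (2.76) and in HP over HR (1.48), and they summed to 4387 to 6099 FPKM in HP, 1943 and 2307 FPKM in HR and 564 and 439 FPKM in ND fat, with 518 FPKM in HR 2 and 67.6 FPKM in ND 1. Over 9 libraries 6 of the 8 rose in HP over ND, and none passed by limma in HR over ND or in HP over HR, where 6 and 5 had an unadjusted p under 0.05. Of 4 adipocyte markers 3 fell in HP below ND and 2 in HP below HR, and 3 of 5 mesothelial markers fell in HP below ND. The part of these cell types in the cholesterol genes was not tested.

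In HR over ND fat 2 of 29 cholesterol genes rose over the 7 libraries, Soat1 and Abcg1, where 3.85% of all genes rose and 0.291% fell (4.14% in either direction). No enzyme of synthesis passed by limma in that comparison, and the median over the enzymes was 0.11. At an unadjusted p under 0.05 there were 4 of 19 (Mvk, Lss, Msmo1 and Dhcr7). The share of all genes at that level is not given here, so nothing is drawn from this count. In HP over HR fat 5 of 29 rose, Soat1, Msmo1, Fdps, Cyp51 and Idi1, and none fell, where 4.21% of all genes rose and 2.25% fell (6.46% in either direction). Of the 15 calls in HP over ND fat, 8 were kept under every setting and without any 1 library, and without HP 3 the count was 8. The 7 that were lost then were Hmgcs1 (-0.50 to -0.38 over the settings that lost it), Idi1 (0.67 to 0.75), Lss (1.23), Cyp51 (0.63 to 0.87), Hsd17b7 (0.58 to 0.80), Ebp (0.53 to 0.61) and Insig2 (-0.74 to -0.67), most of them also without HP 1 or HP 2. In HR over ND, the call of Abcg1 was lost and that of Soat1 kept under the replicate block and without any 1 HP library. Over all settings that lost it, Abcg1 was at 0.64 to 0.84. Without HR 3, which leaves HR with 1 library, the differences were 1.74 for Soat1 and 0.64 for Abcg1. In HP over HR none of the 29 passed without HP 1, HP 3, HR 1 or HR 3, 1 passed without HP 2, and 8 without ND 3. Where ND or HR is left with 1 library in these fits, that library is assumed to vary like the other groups.

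**Figure D2:**
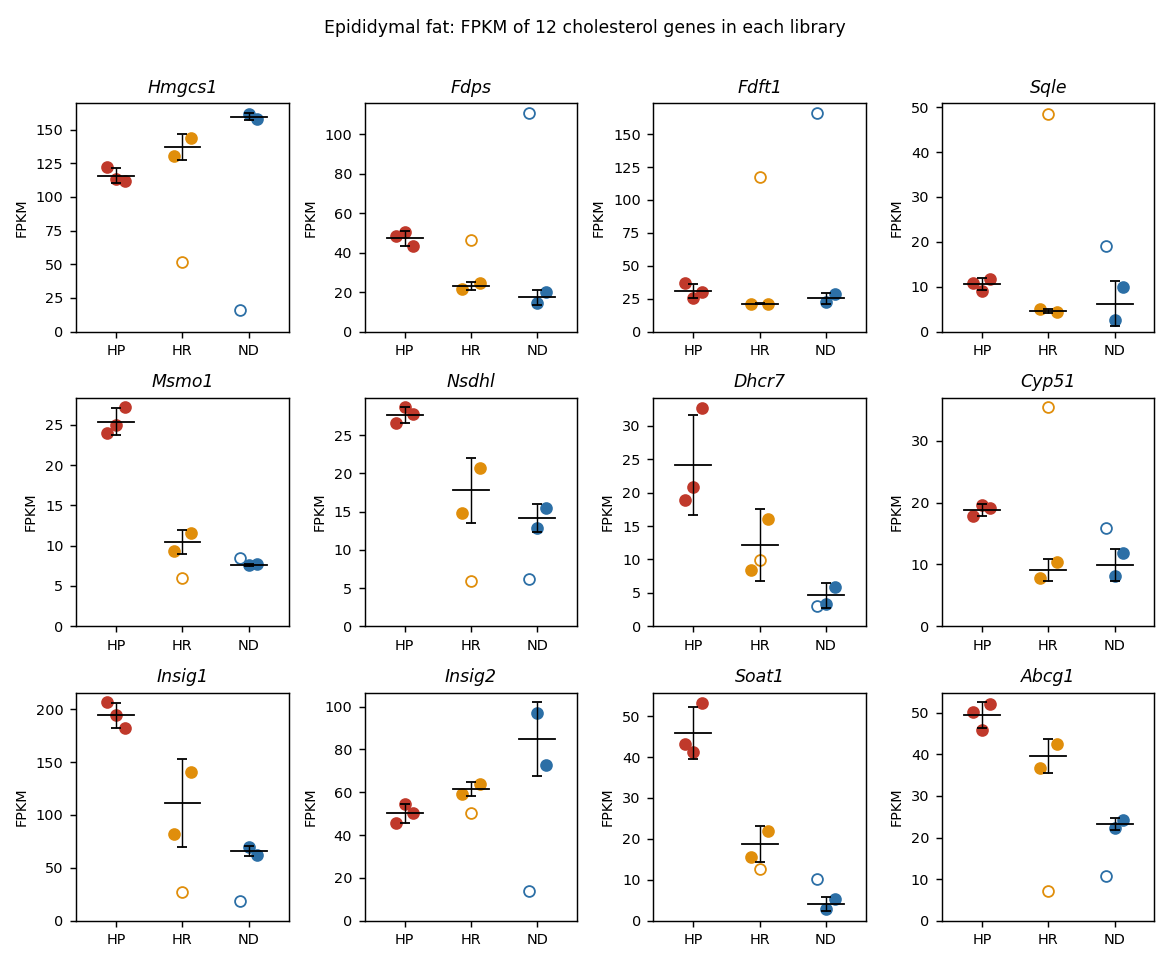
FPKM of 12 cholesterol genes in each of the 9 eWAT libraries, by group (HP red, HR orange, ND blue). Open circles are ND 1 and HR 2, and the line and bar are the mean and SD of the filled circles (n = 3 in HP, 2 in HR, 2 in ND): open circles are far above the others for Fdft1 and far below them for Hmgcs1.

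The further lists were read in fat over the 7 libraries too, beside the 15.7% of all genes that rose and the 7.4% that fell in HP over ND. Of 12 genes of lysosomal release and transport 5 rose and 7 did not pass in HP over ND: Nceh1 (3.89), Lipa (3.51), Npc2, a lysosomal sterol carrier (1.31), Stard3, a sterol transporter of late endosomes (1.10), and Scarb2 (0.65). Lipa averaged 394 FPKM in HP, 138 FPKM in HR and 33.8 FPKM in ND fat. Of 9 LXR partners and lipoprotein genes 5 rose and 4 did not pass in HP over ND: Msr1, a scavenger receptor of macrophages (3.31), Pltp (2.501), Lrp1, an endocytic receptor (1.27), Scarb1 (0.82) and Lrpap1, the chaperone of the receptor family of Lrp1 (0.59). In HR over ND, Nceh1 (2.46), Lipa (1.99), Pltp (1.84), Msr1 (1.55) and Lrpap1 (0.53) rose. In HP over HR, Msr1 (1.75), Lipa (1.52) and Nceh1 (1.43) rose, and 1 of 10 genes that use mevalonate products fell. None of 10 genes of SREBP processing passed by limma in the 3 comparisons of fat. At an unadjusted p under 0.05 there were 2 in HP over ND, 0 in HR over ND and 3 in HP over HR. For these comparisons too the share of all genes at that level is not given here. Cyp27a1, the sterol 27-hydroxylase, fell in HP below ND by 0.73. Among genes that use mevalonate products, Nus1 of dolichol synthesis rose in HP over ND (0.83), and Acat1, the mitochondrial thiolase, and Pdss2 of ubiquinone synthesis fell (-0.75 and -0.67). Over the 7 libraries the macrophage sums above had the order HP, HR, ND, as the means of Lipa did. Over 9 libraries Nceh1 (4.40) and Msr1 (3.10) were the genes of these lists to pass in HP over ND.

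**Figure D3:**
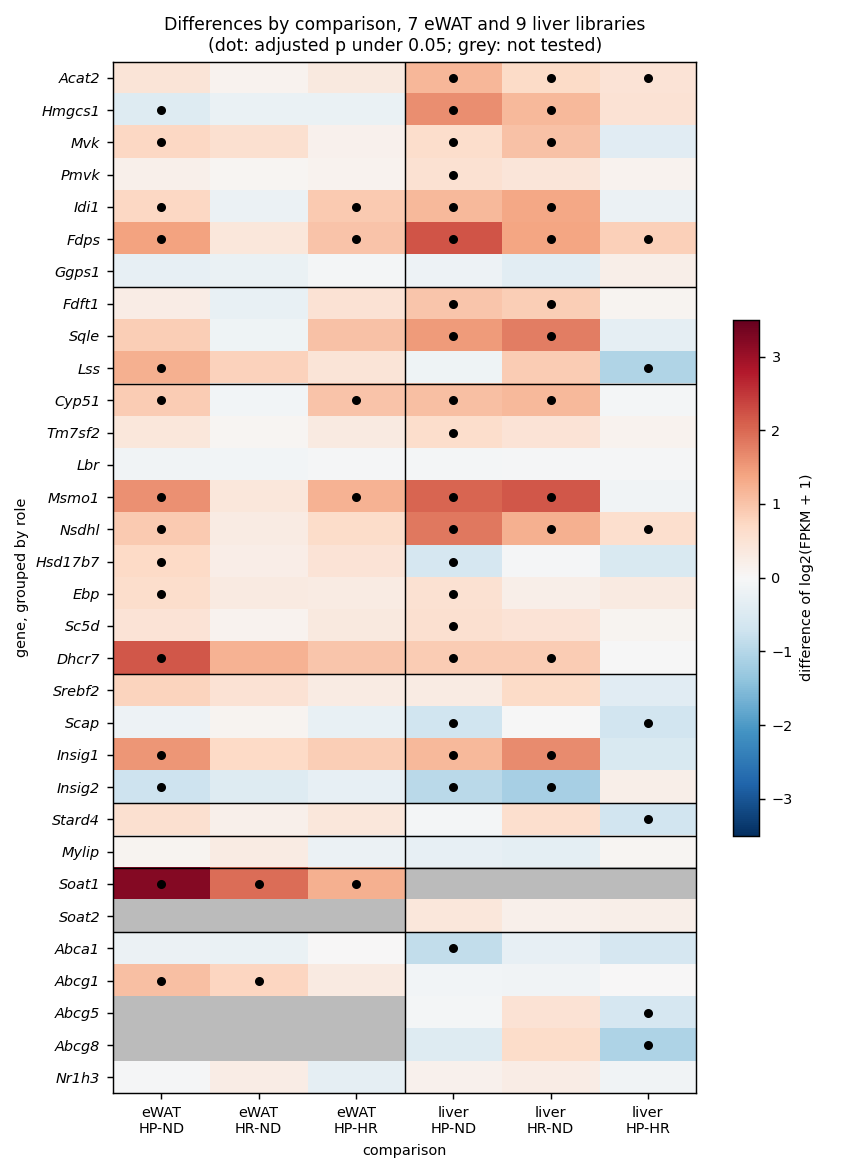
Differences of log2(FPKM + 1) for the 32 cholesterol genes (rows, grouped by role) in 3 comparisons of 7 eWAT libraries and 3 of 9 liver libraries (columns), red where the first group named is higher and blue where it is lower. Dots mark adjusted p under 0.05 and grey marks genes not tested: dots for enzymes of synthesis stand in both columns against ND in liver, and in eWAT in the HP over ND column and not in the HR over ND column.

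A single fit over both tissues tested whether fat and liver differed in these responses, by subtracting the liver contrast from that of fat. Over all 18 libraries 2 of 32 cholesterol genes had a larger HP over ND difference in eWAT than in liver, Soat1 (2.96, SE 0.43, limma adjusted p = 0.00157) and Dhcr7 (1.42, SE 0.39, limma adjusted p = 0.0492), and none a smaller one, where 4.98% of all 15006 genes differed (4.1% larger, 0.886% smaller). These 2 of 32 are a share near that of all genes. Soat1 is at 0.38 to 0.50 FPKM in HP and 0.42 to 0.70 FPKM in ND livers, so its liver side is near the floor of measurement. For HR over ND 1 gene differed, Msmo1 (-2.06, SE 0.31, limma adjusted p = 0.0334), where 0.06% of all genes did (0.0267% larger, 0.0333% smaller): it averaged 8.94 ± 2.83 FPKM in HR and 7.91 ± 0.513 FPKM in ND fat, against 69.0 ± 12.0 FPKM in HR and 14.5 ± 2.17 FPKM in ND livers (SD, n = 3 each). For HP over HR none of the 32 passed by limma, where 0.0733% of all genes did (0.0533% larger, 0.02% smaller), and 10 of 32 against 6.57% of all genes had an unadjusted p under 0.05. The call of Dhcr7 was lost when any 1 of 14 libraries was left out (1.19 to 1.62 where lost), and that of Msmo1 when any 1 of 13 was (-2.14 to -1.71).

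Over 16 libraries, without eWAT ND 1 and HR 2, more genes passed, among all genes as among the cholesterol genes. For HR over ND 7 enzymes of synthesis had a smaller difference in eWAT than in liver, where 7.16% of all 13730 genes differed (5.59% larger, 1.57% smaller): Sqle (-1.94), Msmo1 (-1.77), Idi1 (-1.55), Hmgcs1 (-1.35), Cyp51 (-1.25), Fdft1 (-1.12) and Nsdhl (-0.94). Soat1 (2.15) and Abcg1 (0.86) had a larger one. For HP over ND, where 27.9% of all genes differed (16.7% larger, 11.2% smaller), Hmgcs1 (-2.10), Nsdhl (-0.91), Fdft1 (-0.71) and Acat2 (-0.70) had a smaller difference in eWAT than in liver, and Soat1 (3.35), Lss (1.41), Hsd17b7 (1.29), Dhcr7 (1.28) and Abcg1 (1.15) a larger one, 9 of 32 and so a share near that of all genes. Hmgcs1 and Hsd17b7 thus differed in sign between the tissues, each past the threshold in both: Hmgcs1 fell in HP fat and rose in HP liver, and Hsd17b7 rose in HP fat and fell in HP liver, although apart from Hmgcs1 in liver these calls are among those lost without single libraries. For HP over HR, where 10.1% of all genes differed (5.72% larger, 4.42% smaller), 9 genes had a larger difference in eWAT than in liver: Lss (1.49), Insig1 (1.37), Msmo1 (1.34), Soat1 (1.20), Abcg8 (1.16), Idi1 (1.12), Cyp51 (1.07), Stard4 (1.07) and Hsd17b7 (1.01). Abcg8 was under 1 FPKM in the 7 eWAT libraries, so its difference rests on liver.

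The tissues ordered the same genes differently. By mean FPKM, the order in eWAT over 7 libraries began with Hmgcs1 (134 ± 20.4), Insig1 (134 ± 62.2), Insig2 (63.3 ± 17.3), Nr1h3 (61.4 ± 7.66) and Sc5d (57.4 ± 11.4), and ended with Abcg5, Soat2 and Abcg8, all at or below 0.20 (SD, n = 7, over the 3 groups). In liver it began with Insig2 (187 ± 99.2), Sc5d (147 ± 31.1), Ebp (114 ± 22.5), Tm7sf2 (84.2 ± 18.7) and Hmgcs1 (74.7 ± 34.8), and ended with Abcg1 (1.02 ± 0.141) and Soat1 (0.474 ± 0.135; SD, n = 9, over the 3 groups). These orders pool the groups, and their upper ends differed by group: Insig1 led in HP fat, at 194 FPKM against 116 FPKM for Hmgcs1, while Hmgcs1 led in HR fat with 137 FPKM and in ND fat with 159.6 FPKM, each over 2 libraries. Sc5d led in HP livers with 169 FPKM and in HR livers with 158 FPKM, and Insig2 in ND livers with 289 FPKM. Neighbours in these orders lay within their SDs of each other, apart from Lbr and Ggps1 and the step down to the genes under 1 FPKM in eWAT, and Mvk and Mylip, Lbr and Abcg1, and Abcg1 and Soat1 in liver. Over 18 libraries 10 of 32 cholesterol genes were higher and 13 lower in eWAT than in liver, where 64.1% of all genes were higher and 13.3% lower (77.5% in either direction), with a median of -0.18 over the 32 genes and 0.95 over all genes tested. With quantile normalization 4 were higher and 18 lower, and with rescaling to the same sum 12 and 10. Over 16 libraries 13 were higher and 15 lower (72.1% and 17.1% of all genes).

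The largest contrasts were between partners of one step. For storage, Soat1 was higher in eWAT than in liver by 3.57 and Soat2 lower by 4.20 on the log2 scale (limma adjusted p = 2.09e-10 and 5.38e-14). For export, Abcg1 was higher in eWAT by 3.82, while Abcg5 and Abcg8 were lower by 5.38 and 4.53. For the C14 reduction, Tm7sf2 was lower in eWAT by 3.10 and Lbr higher by 1.83. The FPKM ratio of Tm7sf2 to Lbr was 0.697 to 0.856 in HP, 0.587 to 0.647 in HR and 0.426 to 4.36 in ND fat, against 36.9 to 49.6 in HP, 33.5 to 46.1 in HR and 23.0 to 30.6 in ND livers. ND 1 gave the 4.36, and the other eWAT libraries were all below 1. Ebp (-2.15), Sc5d (-1.89), Hsd17b7 (-1.73), Msmo1 (-1.63) and Dhcr7 (-0.68) of the late steps were lower in eWAT than in liver, and Mvk (1.36), Pmvk (1.18) and Ggps1 (1.12) of the early steps, Lss (1.21) and Mylip (1.90) were higher. The direction of each gene in this paragraph was the same in every setting, with calls lost under quantile normalization for Pmvk, Ggps1, Lss and Mylip and under rescaling for Dhcr7.

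**Figure D4:**
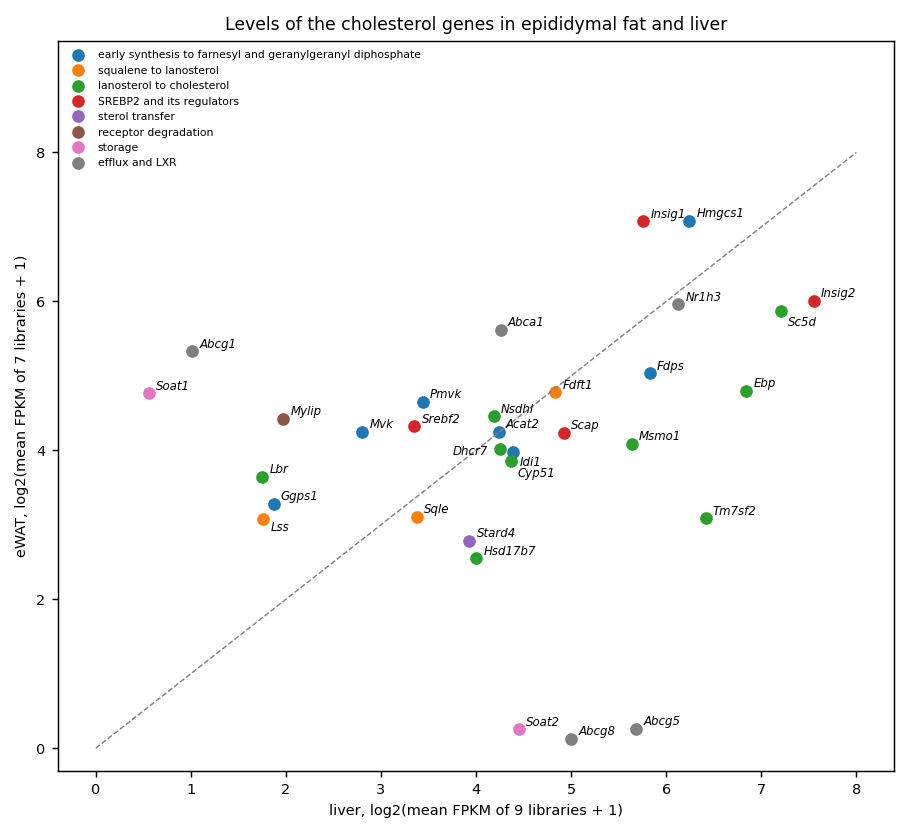
Mean level of the 32 cholesterol genes in eWAT (vertical, 7 libraries) against liver (horizontal, 9 libraries), both as log2 of mean FPKM + 1, coloured by role, with the dashed line of equal levels. Soat1, Abcg1 and Mylip lie far above the line, and Soat2, Abcg5, Abcg8 and Tm7sf2 far below it.

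Some genes overlap others in GENCODE M21, and whether the authors counted by strand is not given in the sources used here. Ctsb, which overlaps Fdft1, had 1288 to 1816 FPKM in HP, 166 to 999 FPKM in HR and 36.9 to 471 FPKM in ND fat, while Fdft1 did not pass in HP over ND fat (0.26). Tm7sf2 shares 532 exon bases with Vps51 on the same strand, and Vps51 had 13.1 to 20.3 FPKM in HP and 8.74 to 14.1 FPKM in ND livers. Scap shares 985 bases with 5830462I19Rik, a transcript of at most 1.44 FPKM. Lbr shares 440 bases with Dnah14, a gene of motile cilia at 19.1 FPKM in eWAT HR 2 and under 4 FPKM elsewhere. Fdps shares 1124 bases with Gm43738 on the same strand, a predicted gene not analysed here, so its values are the less certain for that.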

How the data were processed

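The authors deposited 1 table of FPKM values over 18 libraries. The submitters' processing notes name Cufflinks 2.1.1, STAR 2.4.0 and CASAVA 1.8.2 without saying what each did. Build, annotation and strandedness: not given in the sources used here. FPKM holds no total count, so depth is unknown and no counting interval was given, and where another tissue adds RNA the values of other genes are lower. Ensembl identifiers were named from GENCODE M21 (22671 of 23474). limma 3.58.1 (R 4.3.3) was fitted to log2(FPKM + 1) with a variance trend, a minimum of 1 FPKM in 3 libraries of the fit, Benjamini-Hochberg adjustment over all genes tested and a threshold of 0.05. The 3 groups of a tissue shared 1 fit, and both tissues shared 1 fit for their differences. Alternatives were a pseudocount of 0.1, no filter, rescaling to the same sum, quantile normalization, a block for the replicate number, and each library left out in turn. The steps were tested on simulated data with known differences added to HP. Its noise was independent for each gene and held no RNA of other tissues, so it does not bear on such libraries. Values in every library were given for up to 4 genes past the threshold in each role group, largest difference first. The cholesterol genes, the pathway lists and the fits over 7 and 16 libraries were chosen with earlier results of these data known. Some genes of the pathway are not reported here.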

Additional observations from a re-analysis of the deposited data

Results flagged for a closer look

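For 3 genes the response to diet was tested to differ between the tissues, as the difference of the contrasts in eWAT and liver over 18 libraries. Soat1 had a larger HP over ND difference in eWAT than in liver, by 2.96 on the log2 scale (limma adjusted p = 0.00157), and by 3.35 over 16 libraries. Dhcr7 had a larger HP over ND difference in eWAT than in liver, by 1.42 (limma adjusted p = 0.0492; alternatives where the call was lost gave 1.19 to 1.62). Msmo1 had a smaller HR over ND difference in eWAT than in liver, at -2.06 (limma adjusted p = 0.0334), and at -1.77 over 16 libraries. The calls of Dhcr7 and Msmo1 were each lost in 16 of 24 alternatives. Where lost, Msmo1 was at -2.14 to -1.71. Of all genes, 4.98% differed between the tissues for HP over ND and 0.06% for HR over ND.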

How the results depend on the processing

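In liver, the counts in HP over ND (15 to 21 when each library was left out in turn) and HR over ND (9 to 14) stayed within 1.5 times their main values of 20 and 13 under every setting run. HP over HR in liver (8) gave 4 with no filter and 2 to 10 without 1 library, lowest without HP 2 or HR 2. In eWAT over 9 libraries, HP over ND (3) gave 0 with quantile normalization, 0 with the replicate block and 0 to 4 without 1 library, and the other comparisons gave 0 to 0. Over 7 libraries, HP over ND (15) gave 8 to 16 without 1 library, lowest without HP 3; HR over ND (2) gave 1 with the replicate block and 0 to 3 without 1 library; HP over HR (5) gave 2 with no filter, 3 after rescaling, 0 with the replicate block and 0 to 8 without 1 library. The tissue difference of HP over ND (2) gave 1 with a pseudocount of 0.1, 1 with no filter, 9 over 16 libraries and 1 to 6 without 1 library; that of HR over ND (1) gave 0 with quantile normalization, 0 after rescaling, 0 with the replicate block, 9 over 16 libraries and 0 to 3 without 1 library; that of HP over HR (0) gave 9 over 16 libraries and 0 to 1 without 1 library. The cause of these shifts was not tested. eWAT over liver (23) gave 21 to 26 without 1 library. Srebf2 turned to -0.062 with quantile normalization (0.76 in the main fit) and Idi1 to 0.045 after rescaling (-0.34 in the main fit). Rescaling moved the median of all genes in HP over ND livers to -0.20 and quantile normalization that of eWAT over liver to 0.11, against -0.02 and 0.95 in the main fits. The eWAT over liver median was also 0.53 with no filter, 1.22 with a pseudocount of 0.1 and 1.21 after rescaling. Libraries with the same number correlated in their deviations at -0.35 to 0.43 in liver and -0.84 to 0.63 in eWAT, so the numbers were not taken to pair them. Between the tissues of a group the correlations were -0.14 to 0.21 for the same number and -0.21 to 0.16 for different numbers. The replicate block gave 19, 12 and 7 calls in the 3 liver comparisons. It shares a number over all groups, so it does not model a mouse that gave both tissues, and the fits over both tissues do not allow for one.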
